A study of Equus caballus with 34 samples.

Results

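A list of 40 genes that mark leukocytes was followed through the wall of the horse dominant follicle. It held 11 macrophage and complement genes, 14 T and NK cell genes, 4 granulocyte genes and 11 genes shared by several kinds of leukocyte. Their probes were found on the array by the gene name, gene number or synonym in the gene name field, or by the protein name in the probe's description. This gave 99 of 43603 probes that were not controls. A probe was kept where the scanner software marked its spot as well above background on 5 or more of the 34 arrays, as 36629 probes were, and 97 member probes of 39 genes passed. CD4, the co-receptor of helper T cells, was not kept, since its probe was well above background on 3 arrays only, 2 of theca wall PO and 1 of theca wall LD. Just inside the limit were the probes of CCR7 on 6 arrays, of CSF3R on 7 and of ZAP70 on 10, and just outside it, beside CD4, was an additional S100A9 probe on 1 array.

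The samples were theca wall (TW) and granulosa cells (GC) of Equus caballus at 3 follicle stages, ED for early dominant, LD for late dominant and PO for preovulatory, each hybridised to a single-colour Agilent array. There were 5 arrays for each of TW ED, TW PO, GC ED, GC LD and GC PO, and 9 for TW LD, described as biological replicates. The labels give no age, breed or treatment, and do not say whether a theca wall and a granulosa sample came from the same follicle. Per array, 64.3 to 82.5% of spots were well above background. The 4 arrays of slide 7, all of theca wall, had 1285 to 1718 outlier spots each, against 69 to 593 on the others, and their effect on the counts is given with the processing alternatives.

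The follicle wall has an inner granulosa layer without blood vessels and an outer theca that is vascularised, and a basement membrane separates the layers until ovulation. Macrophages, T cells and other leukocytes live in or pass through the theca, and in several mammals leukocytes gather in the follicle wall as ovulation approaches. Macrophages are known for clearing debris, for the complement protein C1q and for presenting antigen. T cells carry the CD3 chains and signal through the kinases LCK and ZAP70, and neutrophils are rich in the calcium-binding proteins S100A8, S100A9 and S100A12.

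The probes behind the clearest contrasts are printed below as the array's own probe column gives them, 5′ to 3′, so that the transcript stretch behind each value can be seen. The sources used here name no genome build for the array's coordinates, and the strand is read from the order of the ends in that column. The 3 C1q chains, which start the classical complement pathway as 1 molecule, were measured by probes that lie within 18.0 kb of each other on chromosome 2, and capitals mark the 16-base stretch that the C1QB and C1QC probes share.
C1QA: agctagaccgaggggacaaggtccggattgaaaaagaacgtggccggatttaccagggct
C1QB: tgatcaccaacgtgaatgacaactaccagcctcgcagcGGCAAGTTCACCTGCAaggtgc
C1QC: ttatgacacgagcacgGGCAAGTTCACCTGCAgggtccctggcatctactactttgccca
The C1QA probe is annotated at chr2:30480554-30480613, the C1QB probe at chr2:30462581-30462640 and the C1QC probe at chr2:30472965-30473024, all on the minus strand. The next 3 probes carry the contrasts of CD74, which chaperones MHC class II molecules, of CD3E, a chain of the T cell receptor complex, and of LCK, the kinase that acts first on that complex.
CD74: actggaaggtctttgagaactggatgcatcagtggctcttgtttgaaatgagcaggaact
CD3E: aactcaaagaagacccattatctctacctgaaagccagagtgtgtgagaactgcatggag
LCK: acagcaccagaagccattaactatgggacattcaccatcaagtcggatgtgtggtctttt
They are annotated at chr14:26862718-26863097 (CD74, plus strand), chr7:22845133-22846018 (CD3E, plus strand) and chr2:22905402-22905461 (LCK, minus strand), and the CD74 and CD3E spans are longer than their 60-base probes. The S100A8 probe belongs to the granulocyte list, which departs from the others below, and is annotated on unplaced sequence at chrUn:82337680-82337739, minus strand.
S100A8: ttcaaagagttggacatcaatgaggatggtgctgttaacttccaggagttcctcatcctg
PTPRC, the CD45 phosphatase of all leukocytes, had 15 kept probes, and those shown here gave opposite contrasts. The first, at chr30:16459258-16460069 on the plus strand, was well above background mainly in theca wall. The second is a stretch of 30 bases, from base 14 to base 43, of the brightest PTPRC probe at chr30:16477516-16477575, in which capitals mark part of a 34-base TG repeat.
PTPRC, probe detected mainly in theca wall: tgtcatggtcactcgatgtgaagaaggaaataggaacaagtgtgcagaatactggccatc
PTPRC, brightest probe: tctttgcaTGTGTGTGTGTGTGTGTGTGTG

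Leukocyte markers were far stronger in theca wall than in granulosa cells, in every list but that of the granulocytes. Of the 39 genes, 34 were higher in theca wall and 1 was lower, and the median difference was 2.62 on the log2 scale, beside 0.127 over all probes tested. Without the 3 genes well above background on 10 arrays or fewer (ZAP70 and CCR7, which passed the filter through theca wall arrays alone, and CSF3R), 32 of 36 were higher and 1 lower. This omission was chosen after the data were seen. Of all probes tested, 32.1% were called higher and 20.3% lower, 52.4% in all. All values are log2 processed signals minus the 75th percentile of their array, and a gene is represented by its kept probe with the highest mean. Signals of different probes are not comparable, so that levels are compared between samples only. A gene was called at a Benjamini-Hochberg adjusted p below 0.05 over all probes in limma's moderated test. Where a gene was well above background on no array of 1 group, its fold is given as at least a value. For it, signals of that group below the lowest signal well above background on their array were raised to that signal. Such a fold holds for the processing used here only. In whole tissue, fewer cells of a type and less RNA per cell cannot be told apart.

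All 11 macrophage and complement genes were higher in theca wall, with a median difference of 4.41. In 7 of them every theca wall array lay above every granulosa array, as it did in 4.34% of all probes. C1QA ranged over -0.37, 0.95 and 3.18 (lowest, median and highest of 19 arrays) in theca wall, against -7.96, -5.01 and -2.35 over the 15 arrays of granulosa. C1QB ranged over -1.14, -0.03 and 2.18 in theca wall and -7.12, -5.55 and -3.05 in granulosa. C1QC ranged over -1.21, 0.16 and 2.36 in theca wall and -6.32, -4.90 and -2.65 in granulosa. For each C1q chain, the lowest theca wall array lay above the highest granulosa array. The differences were 5.88 ± 0.35 for C1QA (SE; 58.8-fold, adjusted p = 4.14e-15), 5.48 ± 0.31 for C1QB (44.7-fold) and 5.06 ± 0.25 for C1QC (33.3-fold). The scavenger receptors MRC1 and CD163 differed by 4.98 and 4.41, the macrophage actin-binding protein AIF1 by 4.95, lysozyme (LYZ) by 3.67, the endotoxin co-receptor CD14 by 2.88 and the growth factor receptor CSF1R by 2.56. The protease cathepsin S (CTSS) and the lysosomal glycoprotein CD68, at 1.97 and 1.03, had the smallest differences of the list.

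Of the 13 T and NK cell genes, 12 were higher in theca wall. Without ZAP70 and CCR7 it was 10 of 11, with a median difference of 2.62. LCK ranged over -3.92, -2.90 and -1.37 in theca wall and -8.43, -7.46 and -4.88 in granulosa, a difference of 4.57 ± 0.27 (SE; 23.8-fold, adjusted p = 4.45e-15). CD8A, the co-receptor of cytotoxic T cells, ranged over -4.77, -3.37 and -1.54 in theca wall and -8.94, -7.93 and -6.72 in granulosa, where it was well above background on 1 of 15 arrays. CD3E ranged over -3.81, -2.42 and -0.82 in theca wall and -8.78, -5.83 and -3.57 in granulosa. LCK and CD8A separated the layers with no overlap, and CD3E overlapped at its edges. Their differences were followed by those of the killing protease GZMA at 3.55, CD3G at 2.68, and the T cell surface proteins CD5 at 2.62 and CD2 at 2.40. CD3D and CD7 differed by 1.72 and 1.23 and the pore-forming protein PRF1 by 0.93. ZAP70 was not well above background on any granulosa array and was at least 1.09-fold higher in theca wall. CCR7, the homing receptor of naive T cells, was likewise not well above background in granulosa and was so on 6 of 19 theca wall arrays, so no fold is given. GZMB, the second protease, did not pass (0.02 ± 0.50, SE, adjusted p = 0.983), and it belongs to a multigene family whose members could share probe sequence.

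The granulocyte genes did not follow the layer contrast of the other lists: 1 of 4 passed. S100A12 ranged over -7.46, -2.28 and 3.21 in theca wall and -8.14, 0.85 and 3.38 in granulosa, a difference of -0.57 ± 0.85 (SE, adjusted p = 0.594). S100A9 ranged over -9.77, -5.91 and -0.45 in theca wall and -6.52, -4.24 and -1.54 in granulosa, with -1.32 ± 0.63 (adjusted p = 0.0797) by the probe used and 0.11 by its other kept probe. S100A8 ranged over -7.49, -6.72 and -3.96 in theca wall and -8.57, -7.64 and -5.34 in granulosa and was higher in theca wall by 0.87 ± 0.32 (adjusted p = 0.0246). The S100A9 and S100A12 ranges overlapped over most of their width, and they were wide within each layer. S100A8 turned to -0.17 with normexp background correction and to -0.028 in the deposited table, and S100A9 passed the threshold as lower in theca wall under quantile normalization (-1.98, adjusted p = 0.0114), under median centring (-1.92) and without TW LD replicate 1 (-1.53). CSF3R, the receptor for granulocyte colony-stimulating factor, was well above background on only 5 of 19 theca wall and 2 of 15 granulosa arrays, so no difference is given.

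Of the 11 shared genes, 10 were higher in theca wall, with a median difference of 2.89. CD74 ranged over -1.44, -0.21 and 1.19 in theca wall and -8.10, -6.03 and -3.16 in granulosa, a difference of 5.70 ± 0.32 (SE; 52.1-fold, adjusted p = 8.74e-16). TYROBP, an adaptor of activating receptors on myeloid and NK cells, ranged over -4.12, -2.11 and 0.31 in theca wall and -8.39, -6.94 and -3.32 in granulosa, a difference of 4.58. LAPTM5, a lysosomal membrane protein of blood cells, ranged over 0.95, 1.70 and 3.65 in theca wall and -3.52, -1.62 and 0.47 in granulosa, a difference of 3.75. CD74 and LAPTM5 did not overlap between the layers, and 16 of 19 theca wall arrays lay above every granulosa array for TYROBP. The adhesion ligand CD48 differed by 3.47, the Fc receptor adaptor FCER1G by 3.26, the tetraspanin CD53 by 2.89 and the chemokine receptor CXCR4 by 2.08. KIT, the stem cell factor receptor of mast cells that theca and oocytes also use, differed by 1.72, the actin-binding protein CORO1A by 1.48 and CD52 by 1.23.

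**Figure D1:**
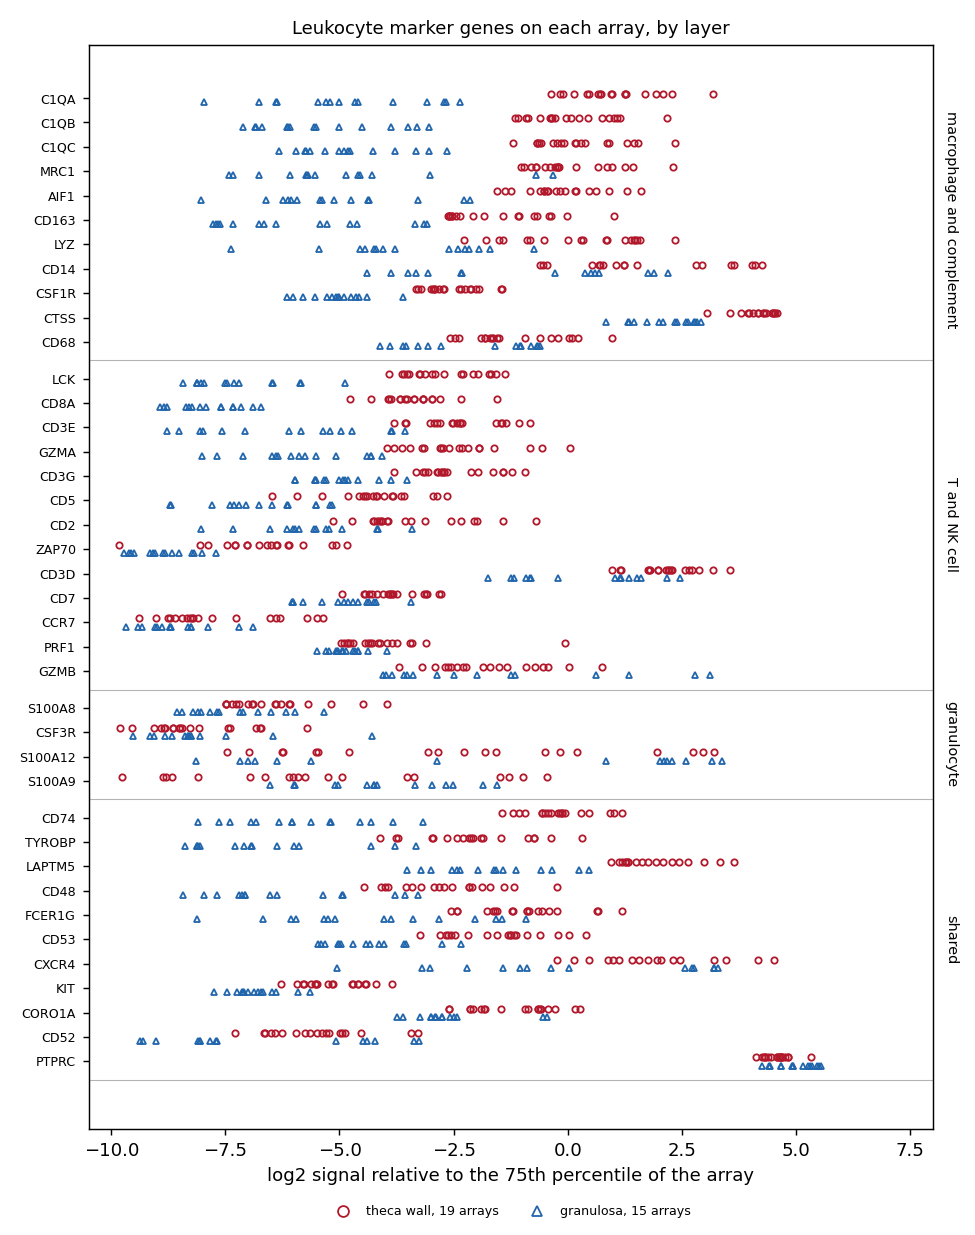
Level of each of the 39 genes on every array (log2 processed signal minus the 75th percentile of the array, horizontal axis), theca wall as circles and granulosa as triangles, with the genes grouped by list. The theca wall arrays of C1QA, from -0.37 to 3.18, all lie above its granulosa arrays, from -7.96 to -2.35, whereas the layers of S100A12 overlap.

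PTPRC was the 1 member lower in theca wall, and this call rested on a repeat probe. Its brightest probe was lower in theca wall by 0.42 on the log2 scale (adjusted p = 0.000786). The 6 PTPRC probes that carry the TG repeat differed by -0.42 to -0.15 and were well above background on all 34 arrays. A further 5 probes, among them the first printed above, were set apart by a layer difference above 2. Their differences, 2.35 to 2.97, are thus large by choice. These probes were well above background on 17 to 18 of 19 theca wall arrays and 2 to 6 of 15 granulosa arrays. The remaining 4 probes lay between, at 0.41 to 0.87. On the rest of the array, all 9 probes with a repeat of 10 or more TG or CA units were well above background on every array, as 54.1% of all probes were. Only 1 of these 9 had TG units on the strand of the probe, as the PTPRC probes have, and its layer difference was -0.34. The median layer difference of the 9 was 0.39. With PTPRC represented by its brightest probe without the repeat, a choice made after the values were seen, all 35 calls of the layer contrast were higher. The part of the repeat in these signals was not tested further. In the other genes with several kept probes, apart from GZMB, S100A9 and S100A12, every probe was called higher in theca wall. Overlapping probes share sequence and are not independent.

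**Figure D2:**
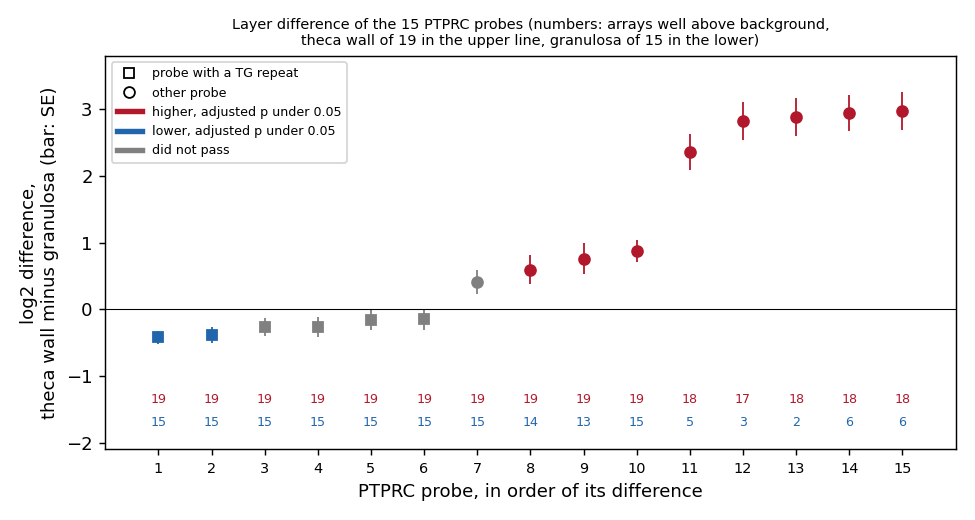
Difference between theca wall and granulosa (log2, vertical axis, bars give the SE) for the 15 PTPRC probes in order of their difference, with the number of arrays of each layer on which the probe was well above background. The 6 repeat probes lie between -0.42 and -0.15, and the 5 probes set apart by their larger difference lie between 2.35 and 2.97.

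The layers were largely hybridised on different slides, and only slides 2 and 8 held both, with LD arrays of each layer. Within slide 2, 29 of 39 genes were higher in theca wall, with a median difference of 1.30, and within slide 8 it was 32 of 38, with a median of 2.51. The share of all probes higher within these slides was not counted. Below 0 within slide 2 were, among others, CD68 and CD5 at -0.77 and -1.27. When normexp was used, 27 of the 35 layer calls were kept, 7 of 12 among the T and NK cell genes, and the differences of ZAP70, CCR7 and CD52 turned to -0.027, -0.14 and -0.11. With the slide as a fixed block 22 genes were called, all higher in theca wall. Markers of other cells moved with the layer too: all 11 endothelial markers tested were higher in theca wall (median 4.28), as were all 12 theca markers (4.29), and 10 of 11 granulosa markers were lower. The endothelial markers summed to 3.87 to 15.96 times the array's 75th percentile in theca wall and 0.08 to 0.83 times in granulosa, where 2 of the 11 were well above background on no array, and the part of blood vessels or of theca cells in the leukocyte signal of either sample was not tested.

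Between late and early dominant theca wall, no member gene was called in limma's test, and 0.00562% of all probes were called. At an unadjusted p below 0.05, 8 members were higher and 2 lower in late dominant theca wall, beside 8.4% of all probes higher and 5.87% lower. The smallest adjusted p values belonged to CD14 and CD3E. CD14 read 0.54, 1.23 and 4.10 (lowest, median and highest of 9 arrays) in TW LD, against 0.70, -0.44, -0.53, 1.53 and -0.61 in TW ED (1.67 ± 0.60, SE, adjusted p = 0.227). CD3E read -3.81, -2.87 and -2.32 in TW LD, against -1.44, -2.37, -2.50, -1.35 and -2.94 in TW ED (-0.86 ± 0.32, adjusted p = 0.248). The LD arrays lay towards higher values for CD14 and towards lower values for CD3E, with overlap in both. By list, the median difference was 0.67 for the macrophage genes and -0.33 for the T and NK cell genes.

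In preovulatory against late dominant theca wall, 22 of 39 leukocyte markers rose and 0 fell, with a median difference of 1.34, beside 0.073 over all probes, of which 14.2% were called, 9.33% higher and 4.83% lower. No member was lower at an adjusted p below 0.05, and 1, CD3D, was lower at an unadjusted p below 0.05, as 12.4% of all probes were. The called genes were 6 of 11 macrophage, 8 of 13 T and NK cell, 0 of 4 granulocyte and 8 of 11 shared genes. Without the 3 genes well above background on 10 arrays or fewer, 20 of 36 members were higher and 0 lower. CD68 read 0.98, 0.24, 0.09, 0.04 and -0.20 in TW PO, against -1.91, -1.66 and -0.36 (lowest, median and highest) in TW LD (1.60 ± 0.29, SE; 3.03-fold, adjusted p = 0.00611). CD74 read 0.92, 1.01, 0.28, 1.19 and 0.46 in TW PO, against -1.44, -0.44 and -0.12 in TW LD (1.33 ± 0.24; 2.51-fold). Every TW PO array of both genes lay above every TW LD array. The share of all probes that did so was not counted.

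The 8 T and NK cell calls of this step depended on the background correction: with normexp none of them was kept, at adjusted p values of 0.0687 to 0.876. CD2, an adhesion receptor of T cells, read -1.42, -2.05, -3.13, -0.69 and -1.99 in TW PO, against -5.14, -4.07 and -2.35 in TW LD (2.08 ± 0.43, SE; 4.24-fold, adjusted p = 0.00823). ZAP70 read -4.85, -6.12, -5.79, -5.17 and -5.08 in TW PO, all well above background, against -9.83, -7.29 and -6.12 in TW LD, where 2 of 9 arrays were (2.07 ± 0.43; 4.20-fold). For CD2 and ZAP70, 4 of the 5 TW PO arrays lay above all 9 TW LD arrays. CD3E, CD3G, CD5, GZMA and CD7 also rose, by 0.85 to 1.78. CCR7, called too, was well above background on all 5 TW PO and 1 of 9 TW LD arrays and so passed the filter almost through TW PO alone, and no difference is given for it. LCK (1.00, adjusted p = 0.0825), CD8A (0.74, adjusted p = 0.133) and CD3D (-0.76, adjusted p = 0.127) did not pass. The other called genes were CD163, MRC1 and the 3 C1q chains (1.18 to 1.70), and LAPTM5, CD53, CD48, CORO1A, FCER1G, TYROBP and CXCR4 (1.34 to 2.17).

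When each array was left out in turn, 10 of those 22 genes kept their call throughout: CD68, CD163, MRC1, C1QC, CD2, CD3E, ZAP70, CCR7, CD74 and FCER1G. Of these, CCR7 passed the filter almost through TW PO alone, so its kept call is no added support. The count was 10 without TW PO replicate 1, 14 without TW PO replicate 3 and 12 without TW PO replicate 5, and the other calls were lost in at least 1 of these or other leave-outs. Under normexp ZAP70 turned to -0.11 and CCR7 to -0.24, and 11 of the 22 calls were kept. Of the 22, 2 were kept under every alternative. Over the same step 5 of 11 endothelial markers rose, and their sum was 11.44 to 15.96 times the 75th percentile in TW PO, against 3.87 to 14.52 in TW LD. The part of a change in blood vessel share was not tested.

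Preovulatory set against early dominant theca wall gave 21 higher members and 0 lower, with 24.5% of all probes called, 15.8% higher and 8.67% lower. No member was lower at an unadjusted p below 0.05, as 14.5% of all probes were. The median member difference was 1.39, beside 0.114 over all probes. In 15 genes, CCR7 among them, every TW PO array lay above every TW ED array, as it did in 12% of all probes. This contrast shares its TW PO arrays with the previous one, so their counts are not independent. The calls were 8 of 11 macrophage, 2 of 4 granulocyte, 8 of 11 shared and 3 of 13 T and NK cell genes. The last were CD2 (1.99), GZMA (1.65) and CCR7. CCR7 was well above background on all 5 TW PO and 0 of 5 TW ED arrays. It thus passed the filter almost through TW PO alone, and no difference is given for it. Without the 3 genes well above background on 10 arrays or fewer, 20 of 36 members were higher and 0 lower. Under normexp 15 of the 21 calls were kept, and CD2, GZMA, CCR7, S100A9, LAPTM5 and KIT lost theirs, so that no T and NK cell call was left. Under every alternative 8 of the 21 were kept.

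CD68 was higher by 2.34 ± 0.33 (SE; 5.07-fold, adjusted p = 0.00049), and its TW ED arrays read -1.64, -2.47, -2.38, -1.51 and -2.57, below all TW PO arrays given above. FCER1G read 1.19, -0.40, -0.23, 0.65 and 0.66 in TW PO, against -1.22, -2.43, -2.57, -0.89 and -2.43 in TW ED (2.28 ± 0.37; 4.87-fold). C1QC read 2.36, 0.39, 1.45, 1.54 and 1.29 in TW PO, against -0.63, -1.21, -0.66, 0.17 and -0.58 in TW ED (1.99 ± 0.35; 3.97-fold). None of these 3 genes overlapped between the stages. TYROBP read 0.31, -1.46, -0.87, -0.36 and -0.75 in TW PO, against -2.17, -3.71, -3.77, -2.11 and -4.12 in TW ED (2.55 ± 0.45; 5.86-fold), again without overlap. CD14 rose by 3.57, CD163 by 2.06, C1QA by 1.93, MRC1 by 1.89, C1QB by 1.79 and AIF1 by 1.67.

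S100A12 and S100A9 had the widest differences of the 39 members in this contrast. S100A12 read 1.97, 3.21, 0.21, -2.28 and 2.75 in TW PO, against -3.07, -6.99, -4.79, -5.46 and -7.46 in TW ED, where 3 of 5 were well above background (6.73 ± 1.54, SE, adjusted p = 0.00501), and its TW LD arrays ran from -6.26 to 2.96. S100A9 read -1.48, -0.98, -3.37, -5.76 and -1.29 in TW PO, against -6.62, -8.80, -6.01, -8.10 and -9.77 in TW ED (5.29 ± 1.31, adjusted p = 0.0077). All TW PO arrays lay above all TW ED arrays in both genes, and the TW LD arrays spread over nearly the whole range between. S100A8 read -6.11, -6.08, -5.69, -6.28 and -4.48 in TW PO, against -6.42, -7.20, -7.01, -7.48 and -7.49 in TW ED, and did not pass (1.39 ± 0.55, adjusted p = 0.0712). CD74, CD48, CORO1A, CD53, LAPTM5 and KIT completed the calls, at 0.99 to 2.18.

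In every leave-out 16 of these 21 calls were kept, whereas KIT, CD53, LAPTM5, GZMA and CORO1A each lost theirs without TW ED replicate 5, CORO1A there only and the others in 3 to 13 leave-outs. Within each of the 5 slides that held both stages, the median member was higher in TW PO, by 1.12 to 2.17. Beside them, 6 of 11 endothelial markers and 2 of 4 red blood cell genes rose, and the red cell genes summed to 0.54 to 2.25 times the 75th percentile in TW PO, against 0.17 to 0.62 in TW ED. The part of blood in these samples was not tested.

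**Figure D3:**
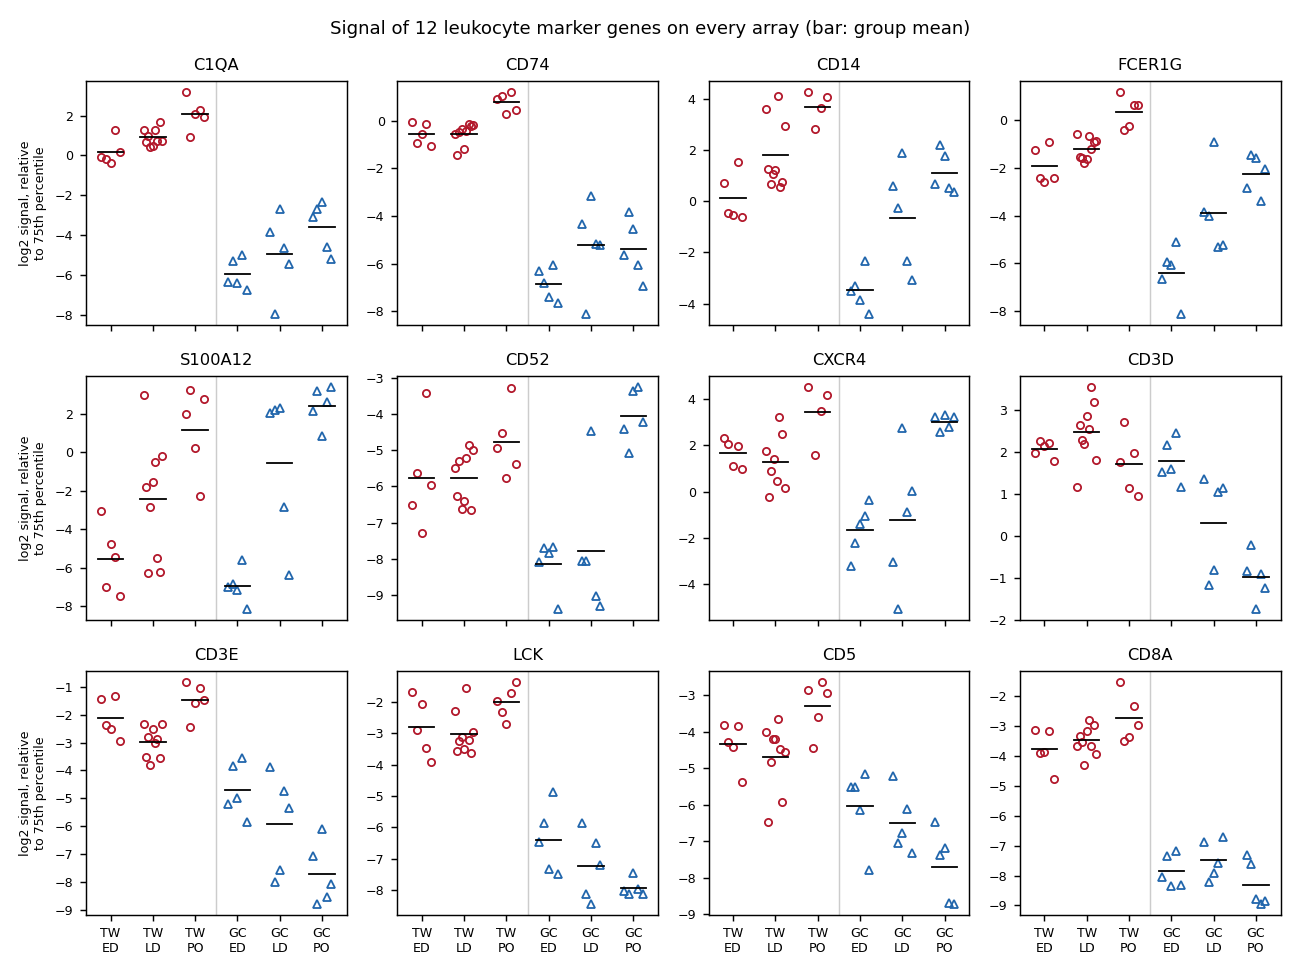
Level on every array (log2 processed signal minus the 75th percentile of the array, vertical axis) of 12 member genes by stage, early dominant to preovulatory, in theca wall and granulosa, with a bar at each group mean. S100A12 in granulosa reads 0.85 to 3.38 at PO, against -8.14 to -5.61 at ED, and CD3D in granulosa reads -1.74 to -0.21 at PO, against 1.16 to 2.47 at ED.

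In granulosa cells the late dominant samples were uneven. CD8A, ZAP70, CCR7 and CSF3R were too dim to be tested there, which left 35 members. No member was called between GC LD and GC ED, 0.00307% of all probes were, and at an unadjusted p below 0.05 the members were 4 higher and 1 lower in GC LD, beside 8.41% of all probes higher and 7.34% lower. S100A12 read 2.03, 2.17, 2.28, -2.86 and -6.38 in GC LD, against -7.01, -6.86, -7.19, -5.61 and -8.14 in GC ED (6.41 ± 1.37, SE, adjusted p = 0.165 in limma's test). CD14 read 0.60, -0.27, 1.88, -2.35 and -3.07 in GC LD, against -3.50, -3.33, -3.86, -2.32 and -4.40 in GC ED (2.84 ± 0.78, adjusted p = 0.184). GC LD replicates 4 and 5 lay towards the GC ED values in both genes, and the other 3 lay higher. Without GC LD replicate 5 the S100A12 difference was 7.86 and that of CD14 was 3.45, and these 2 genes were called (adjusted p = 0.00147 and 0.0166).

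Between preovulatory and late dominant granulosa, 2 of 35 members tested were higher and 0 lower, and 16.7% of all probes were called, 7.09% higher and 9.65% lower. At an unadjusted p below 0.05, 7 members were higher and 2 lower, beside 17.3% of all probes in either direction. CD52, a small glycoprotein of lymphocytes and monocytes, read -4.40, -5.08, -3.36, -3.26 and -4.23 in GC PO, against -8.06, -8.06, -4.47, -9.02 and -9.31 in GC LD, where 1 of 5 arrays was well above background (3.72 ± 0.74, SE, adjusted p = 0.00808, and 0.60 with normexp background correction). CXCR4 read 3.20, 2.58, 3.29, 2.77 and 3.20 in GC PO, against -3.01, -5.05, 2.73, -0.90 and 0.03 in GC LD (4.25 ± 1.05; 19.0-fold, adjusted p = 0.0173). In both genes GC LD replicate 3 lay within the range of the GC PO arrays and the other 4 lay below them. The count was 10 without GC LD replicate 3 and 5 without GC LD replicate 2. With normexp background correction only 1 of these calls, CXCR4, was left.

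In preovulatory against early dominant granulosa, some macrophage and granulocyte markers were among the higher genes and some T cell markers among the lower. Of 35 members, 13 were higher and 4 lower, with 44.7% of all probes called, 23.2% higher and 21.4% lower. The share of members called was thus near that of all probes. The 4 lower genes were all T cell genes, and the higher ones were 5 of 11 macrophage, 1 of 10 T and NK cell, 2 of 3 granulocyte and 5 of 11 shared genes. The median difference was 2.00 for the macrophage genes, 2.31 for the granulocyte genes, 1.17 for the shared genes and -0.71 for the T and NK cell genes. Lists of further genes did not repeat the macrophage and granulocyte counts. Of 11 further macrophage genes 1 was higher and 1 lower, and of 4 further granulocyte and mast cell genes 0 were called. Of 13 further T and NK cell genes 5 were lower and 0 higher.

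The smallest adjusted p values among the higher genes belonged to S100A12, CD14, CD52 and FCER1G. S100A12 read 2.11, 3.16, 0.85, 2.59 and 3.38 in GC PO, against the GC ED values given above, of which 2 of 5 were well above background (9.38 ± 1.37, SE, adjusted p = 0.000247). Over the alternatives the S100A12 difference was 5.55 to 9.43, and it was called under each. CD14 read 0.69, 2.20, 1.77, 0.52 and 0.37 in GC PO (4.59 ± 0.78; 24.1-fold against GC ED). FCER1G read -2.82, -1.44, -1.57, -3.39 and -2.03 in GC PO, against -6.68, -5.96, -6.07, -5.11 and -8.12 in GC ED (4.14 ± 0.76; 17.6-fold). None of these overlapped between the stages, and the share of all probes without overlap was not counted for this contrast. CD52 read -8.10, -7.70, -7.83, -7.69 and -9.38 in GC ED, on no array well above background, and was at least 7.63-fold higher in GC PO. CXCR4 rose by 4.65, GZMB by 4.04, CD68 by 2.56, C1QA by 2.38, S100A9 by 2.31, C1QB by 2.05 and C1QC by 1.76. TYROBP was well above background on 3 of 5 GC PO and 0 of 5 GC ED arrays and was at least 2.43-fold higher, and PTPRC rose by 0.78 by its repeat probe. The 5 PTPRC probes detected mainly in theca wall were well above background on 0 to 1 of 5 GC PO arrays. In GC ED they were so on 2 to 3 of 5 arrays. The remaining 4 probes without the repeat were so on 4 to 5 of 5 arrays at either stage, and their stage difference is not given here. The PTPRC call is that of the repeat probe only.

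Lower in preovulatory granulosa were CD3D, CD3E, CD5 and LCK. CD3D read -0.83, -0.21, -1.74, -0.91 and -1.23 in GC PO, against 1.52, 2.18, 1.61, 2.47 and 1.16 in GC ED (-2.77 ± 0.49, SE; 6.83-fold lower, adjusted p = 0.000638). CD3E read -7.07, -8.78, -6.12, -8.53 and -8.06 in GC PO, against -5.21, -3.85, -4.97, -3.57 and -5.83 in GC ED (-3.02 ± 0.78; adjusted p = 0.00609), and 1 of 5 GC PO arrays was well above background, against 5 of 5 in GC ED. Both genes separated the stages with no overlap, for which, again, no share of all probes was counted. CD5 read -6.49, -7.39, -7.20, -8.70 and -8.72 in GC PO, on none of them well above background, against -5.52, -5.52, -6.16, -5.16 and -7.79 in GC ED (at least 1.74-fold lower, adjusted p = 0.0269). LCK read -8.04, -8.12, -7.46, -7.96 and -8.12 in GC PO, likewise on none, against -6.45, -5.87, -7.32, -4.88 and -7.50 in GC ED (at least 1.35-fold lower, adjusted p = 0.0296). CD5 and LCK overlapped between the stages. The 5 CD3D probes start at positions 22853648 to 22853652 and share nearly all their sequence. Their layer differences, at 1.71 to 1.78, are thus not independent and concern another contrast than this one.

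Each granulosa stage stood once on each of 5 slides, so the contrast can be read within slides. The share of all probes with the same sign on every slide was not counted. PO minus ED was below 0 on 5 of 5 slides for CD3D (-3.38 to -2.35), CD3E (-4.96 to -1.14), CD5 (-3.54 to -0.92) and LCK (-3.08 to -0.14), and above 0 on 5 of 5 for S100A12 (8.04 to 11.5), CD14, CD52, FCER1G, CXCR4, GZMB, C1QA and C1QC. CD3D, CD3E, CD14, CD68, C1QC, GZMB, S100A12, PTPRC (by its repeat probe), CD52, FCER1G and CXCR4 kept their calls in every leave-out. CD5 lost its call without GC ED replicates 1, 2 or 4 or GC PO replicates 4 or 5, LCK without GC PO replicates 1, 2 or 5 or GC ED replicates 2 or 4, and C1QA, C1QB, TYROBP and S100A9 each lost theirs in 2 to 6 leave-outs. With normexp background correction C1QA, C1QB, C1QC, CD5, LCK, S100A9 and CD52 did not pass and TYROBP turned to -0.011.

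Other markers moved in the same granulosa samples. Of 7 smooth muscle and pericyte markers tested 4 rose (CNN1 by 7.93, DES by 4.47, TAGLN by 3.32 and ACTA2 by 1.22), and the list's sum was 1.39 to 3.04 times the 75th percentile in GC PO, against 0.25 to 0.41 in GC ED. Of 11 granulosa markers 7 fell. The endothelial sum was 0.14 to 0.38 in GC PO and 0.08 to 0.33 in GC ED, with 4 of 11 endothelial markers on no GC PO array well above background, and the theca sum was 7.62 to 26.5 in GC PO and 13.05 to 42.16 in GC ED. The part of any of these cells in the member changes was not tested.

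Whether the stage change differed between the layers was tested directly, as the PO minus ED difference in theca wall minus that in granulosa. In this test 6 of 39 members were higher and 1 lower, and 28.5% of all probes were called, 15.8% higher and 12.8% lower. CD3E gave 3.67 ± 0.85 (SE, adjusted p = 0.0021), CD5 2.72, CD3D 2.41 ± 0.63 (adjusted p = 0.00519), LCK 2.32 and CD8A 1.48 (adjusted p = 0.0474). CD52 gave -3.09 ± 0.97 (adjusted p = 0.0173). CD5 and LCK were well above background on no GC PO array, and CD52 on no GC ED array, so their granulosa side was measured in part only. CD8A was not well above background on any GC PO or GC ED array, so only the theca wall side of its difference was measured. CCR7, the remaining higher gene, was well above background on all 5 TW PO arrays but on 0 TW ED, GC PO or GC ED arrays. It passed the filter almost through TW PO alone, so no difference is given for it. Without the 3 genes well above background on 10 arrays or fewer, 5 of 36 members were higher and 1 lower. No macrophage or granulocyte gene was called in limma's test, though 1 of each list was higher at an unadjusted p below 0.05, as 22% of all probes were. The CD8A call was lost in 18 of 34 leave-outs, among them TW PO replicate 1, whereas the other 6 were kept in all 34. Under normexp CD3D alone of the 7 kept its call (CD3E 1.24, adjusted p = 0.0654), and 8 members, 7 of them others, were higher. Median centring kept 6 of the 7 and the deposited values kept 4, and CD3D was the 1 gene called under every alternative.

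**Figure D4:**
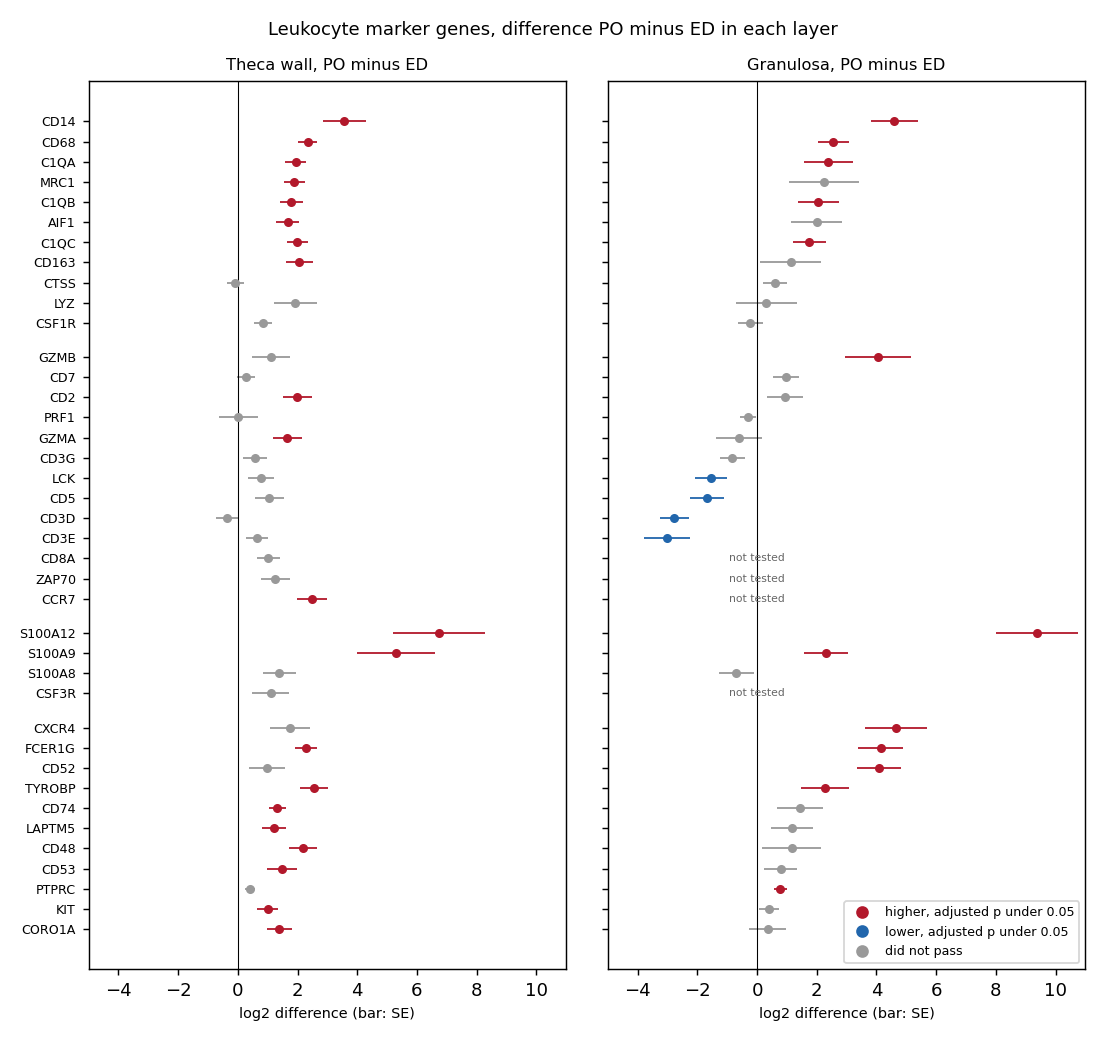
Difference between preovulatory and early dominant samples (log2, horizontal axis, bars give the SE) of each member gene, theca wall at the left and granulosa at the right. CD3D and CD3E lie at -0.37 and 0.65 in theca wall and at -2.77 and -3.02 in granulosa, and S100A12 lies at 6.73 in theca wall and 9.38 in granulosa.

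The share of arrays on which a gene was detected also differed between the groups. In theca wall all 11 macrophage genes were well above background on every array of every stage. In granulosa the number detected on every array was 6 at ED, 4 at LD and 10 at PO. Of the 13 T and NK cell genes, those well above background on no array of the stage numbered 3 in GC ED, 2 in GC LD and 5 in GC PO, and those on every array 7, 4 and 6 in the same order. Over all 39 genes, each TW PO array had 38 to 39 genes well above background, and single GC LD arrays had 17 to 33, the widest span of the 6 groups. The 17 came from GC LD replicate 2 alone, and the other GC LD arrays had 30 to 33. Of all spots, 78.3 to 82.5% were well above background on TW PO arrays and 64.3 to 72.1% on GC LD arrays. The 64.3%, the lowest of the 34 arrays, was that of GC LD replicate 2.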

How the data were processed

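RNA was labelled with Cy3 after oligo(dT)-primed amplification, from TRIzol extracts with RIN above 7.0, per the labels. The deposited scanner files hold spot intensity and background flags from Feature Extraction 9.5.3.1, per the file headers; the submitters' processing notes name Agilent Feature Extraction 9.1. The authors' deposited value table holds log2 values. It tracked a quantile normalization of log2 mean signal (r of at least 0.999995) and served as an alternative. Values here are log2 processed intensity minus each array's 75th percentile, with outlier spots left out of the fit (CD14, CTSS, LAPTM5 and CXCR4 thus had 4 TW PO arrays). Probes that 5 or more of the fitted arrays detected above background were tested with limma 3.58.1 in R 4.3.3 (group means, empirical Bayes), with p-values adjusted by Benjamini-Hochberg over all probes. Stage contrasts used the arrays of 1 layer, and the layer contrast and the interaction used all 34. The calculation was tested on simulated data. Groups came from the labels, and all 9 TW LD arrays were used, since which 5 of them the submitters compared is not given. The submitters describe every group as present on each slide, whereas in the files only slides 2 and 8 of 10 held both layers.

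Values per array are printed for the 3 genes of each list with the widest layer difference and, in each stage contrast, for up to 4 called genes per direction by adjusted p, or the 2 with the smallest adjusted p where none was called. The members, lists and tests were chosen with earlier results of these data known. Alternatives covered background correction (normexp, offset 50), scaling, filters, probes per gene, slides and left-out arrays.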

Additional observations from a re-analysis of the deposited data

Results flagged for a closer look

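Single arrays stood apart from the rest of their group in 6 of 126 groups tested over 21 members, and chance gives about 1 in 20. TYROBP read -0.74 on TW LD replicate 6, above the other 8 arrays, on slide 7, and -6.94 on GC ED replicate 4, above the other 4. LCK read -7.46 on GC PO replicate 3 and S100A8 read -5.97 on GC PO replicate 2, each the highest of its group. CD52 read -4.47 on GC LD replicate 3, the highest of its group, and -9.38 on GC ED replicate 5, the lowest of its group. The TYROBP and CD52 values in GC ED and the LCK values in GC PO were not well above background.

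For 7 genes the PO minus ED difference itself differed between theca wall and granulosa in limma's interaction test, beside 28.5% of all probes. The difference of theca wall minus granulosa was 2.41 for CD3D, 3.67 for CD3E, 1.48 for CD8A, 2.72 for CD5, 2.32 for LCK and 2.51 for CCR7, and it was -3.09 for CD52. Under normexp background correction CD3D alone kept its call, and it was the 1 gene of the 7 called under every alternative.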

How the results depend on the processing

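Calls and directions of the counts above were set against each alternative. With normexp background correction the count of called members was 12 for TW PO against LD (11 of the 22 and CD14), 1 for GC PO against LD and 9 for GC PO against ED. Requiring a signal well above background on at least 50% of arrays gave 1 for GC PO against LD. With the slide as a fixed block the layer contrast gave 22 and GC PO against LD gave 4. With all 34 arrays in 1 fit the counts were 7 for TW PO against LD, 11 for TW PO against ED, 4 for GC LD against ED and 7 for GC PO against LD. In each case the cause was not tested. Leaving out 1 array at a time gave 35 to 36 for the layer contrast, 0 to 0 for TW LD against ED, 10 to 28 for TW PO against LD, 16 to 27 for TW PO against ED, 0 to 2 for GC LD against ED, 2 to 10 for GC PO against LD, 13 to 19 for GC PO against ED and 6 to 11 for the interaction, with 11 without GC PO replicate 2 and without GC LD replicate 3. Without the arrays of slide 7 the layer contrast gave 34, TW PO against LD 20, TW PO against ED 26 and the interaction 8. Under normexp the layer difference turned to -0.027 for ZAP70, -0.14 for CCR7, -0.17 for S100A8 and -0.11 for CD52, that of TW PO against LD to -0.11 for ZAP70 and -0.24 for CCR7, and that of GC PO against ED to -0.011 for TYROBP. Folds given above as at least a value did not hold under normexp for ZAP70 between layers or for CD52, CD5 and TYROBP in GC PO against ED. The normexp log2 differences of CD52, CD5 and TYROBP were 0.35, -0.52 and -0.011. In the deposited table the layer difference was -0.028 for S100A8 and -0.025 for CD52. Within slide 2 it was -0.77 for CD68, -1.27 for CD5, -0.75 for CD7, -0.43 for PRF1 and -0.20 for CCR7, and within slide 8 it was -0.23 for PRF1 and -0.75 for S100A8. The layer difference of all probes had a median of 0.127, against -0.471 with median centring, -0.115 in the deposited table and -0.111 with normexp. Of the 35 layer calls 21 held under every alternative. With 1 probe per gene name 9937 probes were called between layers, against 19158. No paired analysis was possible because the labels give no replicate number that the groups share; the slide, read from the files, served as the block instead. Dim probes near background limit the T cell genes in granulosa most.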

Other observations

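Other leukocyte genes, from lists that share no gene with the members, were read in the same contrasts. Between the layers, 32.1% of all probes were called higher in theca wall and 20.3% lower. All 14 further macrophage genes were higher in theca wall than in granulosa, led by the scavenger receptor MSR1 at 5.13, AOAH at 4.79 and STAB1 at 4.69 on the log2 scale. The MHC class II genes DRA, DQA and DMA were higher in theca wall by 4.67, 4.56 and 2.87, HLA-DOB, not well above background in granulosa, was at least 3.00-fold higher, and their transactivator CIITA was higher by 1.55. Of 16 further T and NK cell genes 10 were higher there, led by GZMK at 4.79, CD8B at 3.91 and KLRD1 at 3.87, and of 9 B cell genes 4 were, led by BLK at 2.32.

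In granulosa, PO against ED, 23.2% of all probes were higher and 21.4% lower. Of 11 further macrophage genes tested, 1 was higher and 1 lower, unlike the macrophage members, of which 5 of 11 were higher and 0 lower. Of 4 further granulocyte and mast cell genes, 0 were higher and 0 lower, unlike the granulocyte members. Of 13 further T and NK cell genes, 5 were lower and 0 higher. These were GZMK at -2.73, CCL5 at -2.60 and LAT at -1.91, and, on no GC PO array well above background, TRAT1 (at least 2.62-fold lower) and KLRD1 (at least 1.25-fold lower). Of 7 B cell genes tested in granulosa 2 were higher and 4 lower, with BLNK, an adaptor of the B cell receptor, at -5.01. Among 12 further shared genes CYTIP, on no GC ED array well above background, was at least 46.7-fold higher, whereas the phosphatase PTPN6 differed by -3.54.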
